A study of Mus musculus with 28 samples.

Results

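The exocyst is a complex that holds secretory vesicles at the plasma membrane before they fuse, and its 9 mouse genes, *Exoc1*, *Exoc2*, *Exoc3*, *Exoc4*, *Exoc5*, *Exoc6*, *Exoc6b*, *Exoc7* and *Exoc8*, were followed here in the irradiated neonatal ovary. They were chosen by the bulk RNA-seq values of *Exoc4* in irradiated and non-irradiated WT ovaries, where it rises, and the remaining 8 genes were added because they encode the rest of the complex. All 9 were found by symbol among 44674 gene identifiers of the bulk RNA-seq table and 31053 of the single-cell gene list, and all 9 passed the filter on low counts. Because *Exoc4* was picked for its response in WT ovaries, its WT values are a description and carry no test.

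The study exposed WT C57BL/6J females and *Chek2*-/- females to 0.5 Gy of gamma radiation from a cesium source or to a sham procedure, and took the ovaries 6 h later. CHEK2 is the checkpoint kinase that passes the signal of DNA breaks to the transcription factors p53 and TAp63. For bulk RNA-seq, both ovaries of 1 female aged 7 to 9 days made a library, with 6 libraries in each of 4 groups (WT non-irradiated, WT irradiated, *Chek2*-/- non-irradiated and *Chek2*-/- irradiated), and for single-cell RNA-seq the ovaries of 4 females aged 7 days were pooled into 1 library per condition. The *Chek2*-/- females carried the tm1b(EUCOMM)Hmgu allele, and whatever else differed between that colony and the WT mice cannot be told apart from the genotype.

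The bulk libraries held 17824920 to 32605519 estimated counts, so that 3 counts came to at most 0.168 CPM (counts scaled to 1000000 per library). *Chek2* itself stood at 22.4 ± 1.66 CPM (SD, n = 6) in non-irradiated WT and 3.75 ± 0.545 CPM (SD, n = 6) in non-irradiated *Chek2*-/- ovaries, and the groups did not overlap. Replicate 6 of both *Chek2*-/- groups stood apart from its group, with oocyte markers summing to 1170 and 1320 CPM where the other *Chek2*-/- libraries had 2080 to 2330 CPM. Blood cell markers set 3 other libraries apart. Neutrophil markers summed to 1300 CPM in irradiated WT replicate 3 and 1330 CPM in irradiated *Chek2*-/- replicate 2, and to at most 10.1 CPM elsewhere, and erythroid markers to 7050 CPM in the latter and 10400 CPM in non-irradiated *Chek2*-/- replicate 5, and to at most 926 CPM elsewhere. In whole-ovary RNA, fewer cells of a type and less RNA per cell cannot be told apart.

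The complex is built from a pair of subcomplexes. The products of *Exoc1*, *Exoc2*, *Exoc3* and *Exoc4*, the relatives of the yeast Sec3, Sec5, Sec6 and Sec8 proteins, form one, and those of *Exoc5*, *Exoc6* or *Exoc6b*, *Exoc7* and *Exoc8*, the relatives of Sec10, Sec15, Exo70 and Exo84, form the other. Small GTPases, such as those of the Ral, Rab and Arf families, tell it where and when to assemble, and SNARE proteins then drive the fusion. The complex is made in most cell types, among them the oocyte and the somatic cells of the ovary.

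*Exoc4* (ENSMUSG00000029763) lies on the plus strand at chr6:33249085-33973979 (GRCm38, GENCODE annotation) and spans 724.9 kb. The stretch upstream of its start is shown with that of *Exoc3*, which codes for a subunit of the same subcomplex, so that the member chosen for its response can be read beside one that did not pass the test. Capitals mark a match to the p53-family decamer, the 10-base element that p53 and p63 bind in pairs. The stretches are chr6:33248878-33249084 (plus strand) and chr13:74208733-74208950 (minus strand), from RefSeq windows of GRCm38.p6, and each ends where the first annotated transcript begins.
Exoc4: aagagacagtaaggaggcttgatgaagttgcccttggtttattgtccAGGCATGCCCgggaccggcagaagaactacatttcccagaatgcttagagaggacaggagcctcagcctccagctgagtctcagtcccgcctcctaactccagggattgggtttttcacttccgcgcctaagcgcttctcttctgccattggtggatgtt
Exoc3: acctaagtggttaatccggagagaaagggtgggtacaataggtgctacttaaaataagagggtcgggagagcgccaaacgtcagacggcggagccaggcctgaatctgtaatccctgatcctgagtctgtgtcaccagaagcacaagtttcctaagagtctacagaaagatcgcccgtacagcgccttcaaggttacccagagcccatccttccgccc
Both strands were searched, and the pattern reads the same on either. The match in the *Exoc4* window began 203 bases before the RefSeq start. Of 13 windows for the 9 exocyst genes, 1 held a decamer, and none held a full site (a pair of decamers with at most 13 bases between them). The windows searched ran from 250 bases before to 50 bases after a RefSeq start, and the stretches shown are the parts of them upstream of the first annotated transcript. Of all 32851 such windows, 8.36% held a decamer and 0.0731% a full site. The windows of *Mdm2* and *Ccng1*, 2 standard p53 targets, held a decamer, that of *Phlda3* held none, and of 2 windows of *Cdkn1a* 1 held a full site and the other no decamer. A match is only a run of letters, and no binding was measured in these samples.

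*Exoc4*, the member chosen for its response, had the largest difference between irradiated and non-irradiated WT ovaries. It measured 53.2, 59.0 and 60.9 CPM (lowest, median and highest of 6) in non-irradiated WT, and 121, 152 and 169 CPM in irradiated WT. Every irradiated WT library was above all other bulk libraries. In 1.68% of all genes tested the irradiated WT libraries were all higher than the non-irradiated WT ones. The share of genes in which they were above all other libraries was not counted. The means were 58.2 ± 2.82 and 151 ± 17.3 CPM (SD, n = 6), a 2.6-fold difference, or 1.38 on the log2 scale with a 95% interval of 1.24 to 1.51. Markers of primordial oocytes moved with irradiation in the same libraries, summing to 225 to 319 CPM (median 260) without and 167 to 225 CPM (median 196) with it, and their part in the *Exoc4* value was not tested.

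In *Chek2*-/- ovaries *Exoc4* measured 48.1, 53 and 57.6 CPM without irradiation and 58.7, 65.8 and 70.9 CPM after it. The irradiated libraries were again all above the non-irradiated ones, but by a small step. Across the genes tested, 0.0896% had irradiated *Chek2*-/- libraries that were all higher. The log2 difference was 0.32 (95% interval 0.18 to 0.45), 1.25-fold, and it did not pass the threshold in edgeR (adjusted p = 0.233), although it ranked 6 of 26790 genes by p. DESeq2 called it (0.31, adjusted p = 0.0131). Leaving out irradiated WT replicate 6, which belongs to neither group compared, gave an edgeR adjusted p of 0.0211. A replicate block fitted to the *Chek2*-/- libraries alone, added after seeing the data, also called it in edgeR (0.31, adjusted p = 0.0178). That setting called 0.02% of all genes. None of the other alternative fits or left-out libraries called *Exoc4* here.

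The WT and *Chek2*-/- responses of *Exoc4* differed by -1.06 on the log2 scale (*Chek2*-/- minus WT, 95% interval -1.25 to -0.87), given as a description since the WT libraries enter it. Of all genes tested, 1.03% were called for this difference. Without irradiation the genotypes stood close together, at 58.2 ± 2.82 CPM in WT and 52.9 ± 3.02 CPM in *Chek2*-/- ovaries (SD, n = 6). That difference of -0.14 did not pass the threshold (edgeR adjusted p = 0.21), and its 95% interval ran from -0.27 to -0.01.

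Among the 230 genes called at least 2-fold higher in irradiated WT ovaries, 0.859% of those tested, *Exoc4* ranked 186 by fold change, 3 by its level in non-irradiated WT and 4 by its gain in CPM. CPM is not scaled to length and *Exoc4* has 12.64 kb of exon, so the last 2 ranks are no order of levels per length. *Exoc4* was chosen for its WT rise, so its place in this set is a description.

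**Figure D1:**
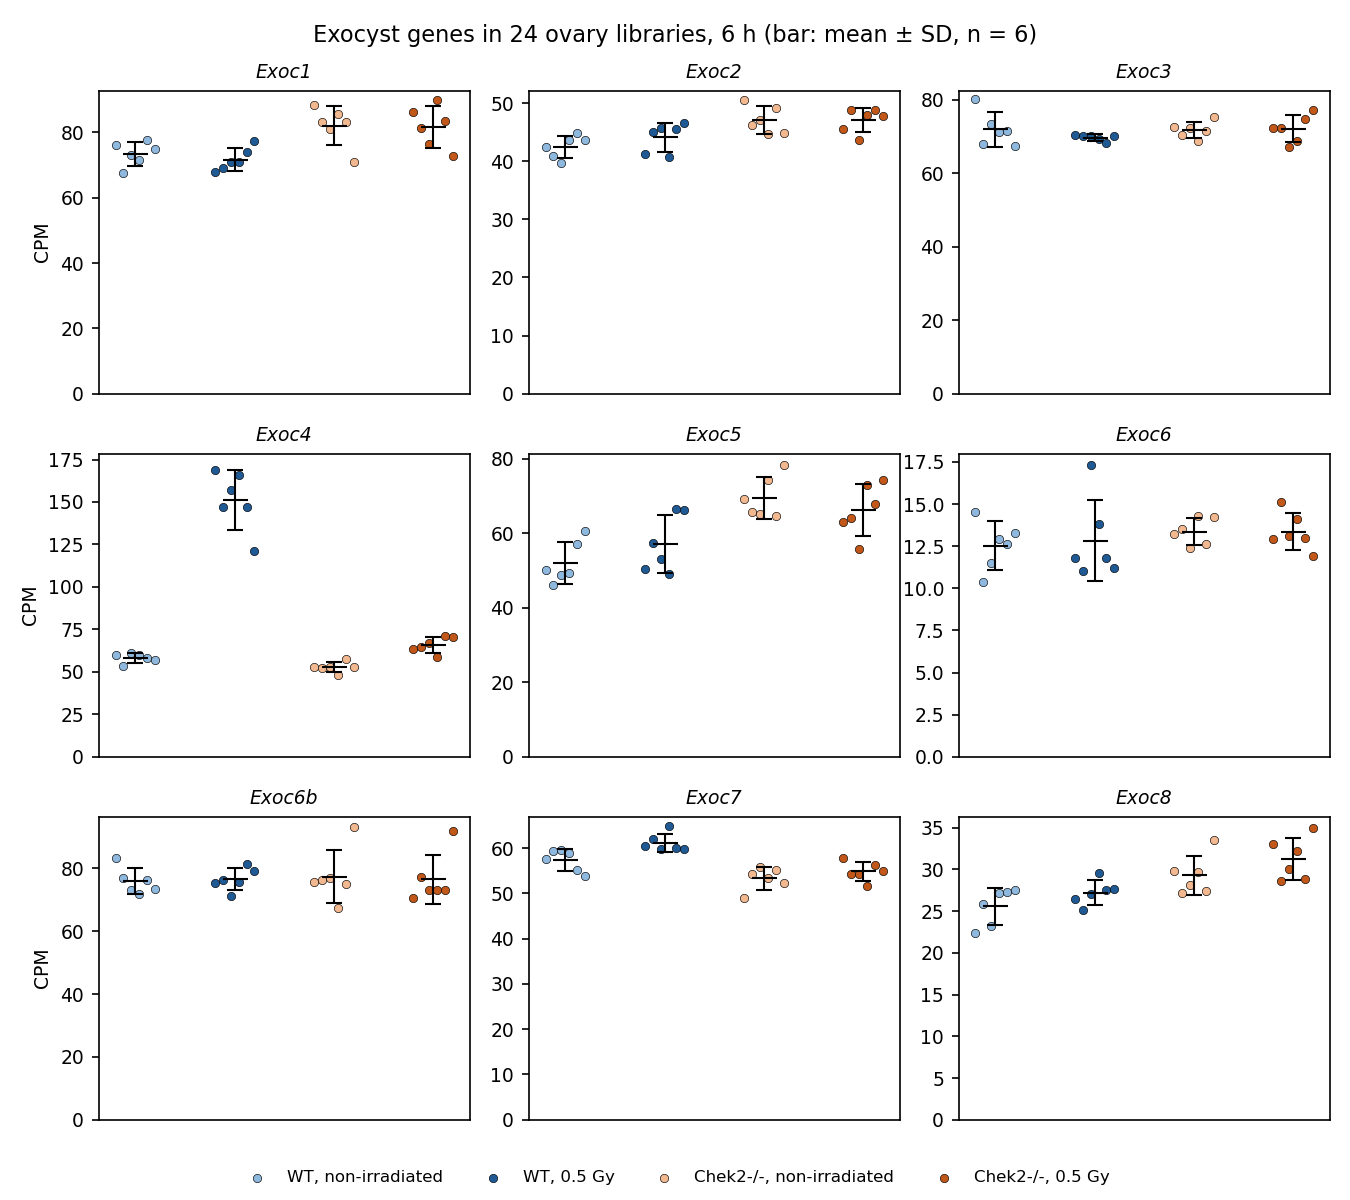
CPM (y axis, from 0) of each exocyst gene in the 24 bulk libraries, with 1 point per library, coloured by group, and bars for the mean and SD of 6 libraries. *Exoc4* stands at 121 to 169 CPM in irradiated WT ovaries and at most 70.9 CPM in the other groups, and *Exoc5* at 64.7 to 78.2 CPM in non-irradiated *Chek2*-/- ovaries beside 46.0 to 60.7 CPM in WT.

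None of the other 3 genes of the same subcomplex passed the threshold. *Exoc1*, whose yeast counterpart binds membrane lipids at the site of docking, measured 67.5, 73.9 and 77.7 CPM in WT ovaries without irradiation and 67.8, 70.9 and 77.3 CPM after it. *Exoc2*, a subunit that binds Ral GTPases, measured 39.7, 43.0 and 44.8 CPM and 40.8, 45.3 and 46.6 CPM. *Exoc3*, which also contacts SNARE proteins, measured 67.3, 71.3 and 80.2 CPM and 68.1, 70.1 and 70.3 CPM. The irradiated and non-irradiated libraries overlapped for all 3 genes. Their log2 differences were -0.04 for *Exoc1*, 0.06 for *Exoc2* and -0.04 for *Exoc3*, and the widest of the 95% intervals ran from -0.15 to 0.08.

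The genes of the second subcomplex did not pass the threshold after irradiation either. *Exoc5* measured 46.0, 49.7 and 60.7 CPM in WT ovaries without irradiation and 49.1, 55.3 and 66.6 CPM after it, and *Exoc8*, a second Ral-binding subunit, 22.4, 26.6 and 27.5 CPM and 25.1, 27.3 and 29.6 CPM. *Exoc6* and *Exoc6b* are alternative forms of the subunit that binds Rab GTPases on the vesicle. *Exoc6* was the lowest of the 9 in CPM, with 10.4 to 14.5 CPM and 11 to 17.3 CPM, the highest being irradiated WT replicate 3. Its log2 difference was 0.03, and -0.07 without that library (edgeR adjusted p = 0.971 and 0.905). *Exoc6b* had 71.8 to 83.4 CPM and 71.1 to 81.3 CPM. *Exoc7*, which binds membrane lipids, was the nearest to a difference. Its irradiated WT libraries (59.8, 60.3 and 64.9 CPM) were all just above the non-irradiated ones (53.8, 58.3 and 59.6 CPM), as in 1.68% of all genes. As with *Exoc4*, they were also above all *Chek2*-/- libraries, and the share of all genes for which that holds was not counted. The log2 difference was 0.09 (95% interval 0.01 to 0.17) and did not pass the threshold (edgeR adjusted p = 0.315).

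Counted over the complex, 1 of 9 members was called in the WT comparison at an adjusted p of at most 0.05 (edgeR), beside 2.41% of all genes tested, and the 1 was the gene chosen for it. The other 8 had log2 differences of -0.04 to 0.14. In *Chek2*-/- ovaries 0 of 9 were called (edgeR), beside 0.0112% of all genes, and the other 8 had log2 differences of -0.07 to 0.10. At an unadjusted p under 0.05, *Exoc4* alone of the 9 passed in that comparison, as 4.4% of all genes did. DESeq2 called 1 of 9, beside 0.0523% of all genes. Summed over the other 8 genes, the level was 395 to 427 CPM (median 410) in WT ovaries without irradiation and 404 to 438 CPM (median 416) after it, and these ranges overlapped.

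**Figure D2:**
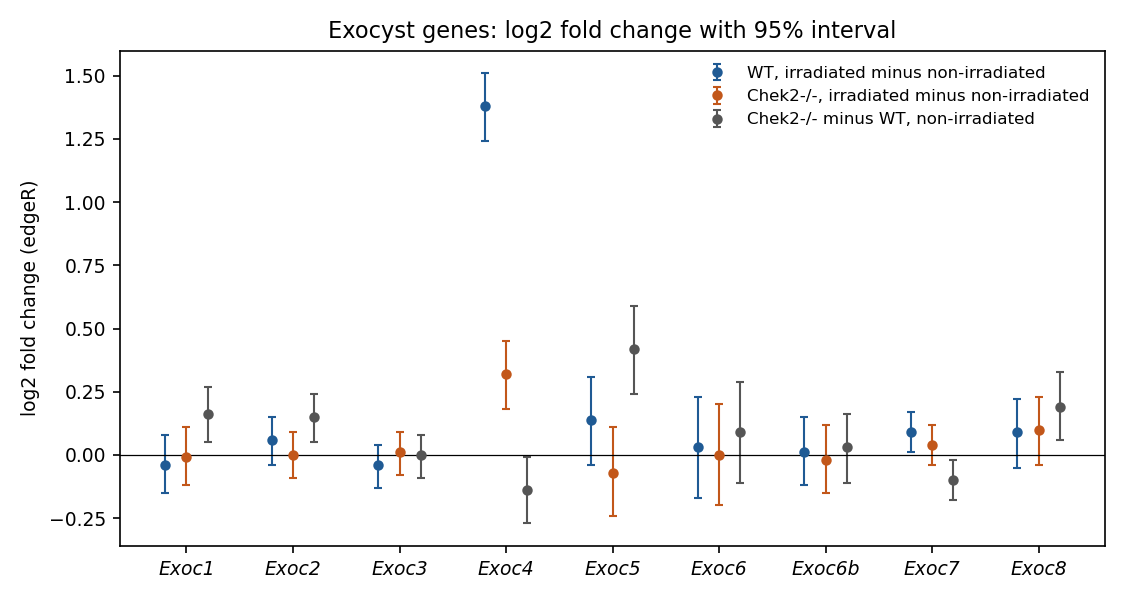
Log2 fold change (y axis) of each exocyst gene in 3 comparisons of the bulk libraries, as points with 95% intervals from edgeR. *Exoc4* in WT is at 1.38 and in *Chek2*-/- ovaries at 0.32, and *Exoc5* is at 0.42 between the genotypes without irradiation.

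Levels of different genes were compared per kilobase of annotated exon. In non-irradiated WT ovaries the order in CPM per kb was *Exoc7* (13.1), *Exoc3* (12), *Exoc2* (6.11), *Exoc1* (6.10), *Exoc8* (5.57), *Exoc6b* (5.02), *Exoc4* (4.60), *Exoc6* (3.53) and *Exoc5* (2.89). The ranges of all neighbours in that order overlapped except *Exoc3* and *Exoc2*, and *Exoc4* and *Exoc6*. After irradiation *Exoc4* stood at 11.9 CPM per kb, beside 14.0 for *Exoc7* and 11.6 for *Exoc3*. Exon lengths join all annotated transcripts of a gene, 1 for *Exoc6* and 12 for *Exoc1*, so the order depends on which transcripts an ovary makes.

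Between the genotypes, 1 gene of the second subcomplex differed. *Exoc5* measured 46.0, 49.7 and 60.7 CPM in WT and 64.7, 67.4 and 78.2 CPM in *Chek2*-/- ovaries without irradiation. The genotypes did not overlap, as in 1.68% of all genes with the *Chek2*-/- libraries higher. The log2 difference was 0.42 (SE 0.09, edgeR adjusted p = 0.00745), 1.34-fold, and it passed the threshold with any 1 library left out (adjusted p = 0.00389 to 0.024). WT replicates 5 and 6 were the highest WT libraries, at 57.2 and 60.7 CPM without and 66.6 and 66.3 CPM with irradiation. Leaving out 1 library at a time does not remove both. After irradiation the genotypes overlapped, at 49.1 to 66.6 CPM in WT and 55.7 to 74.3 CPM in *Chek2*-/- ovaries. With *Exoc5*, 1 of 9 members was called without irradiation, beside 5.34% of all genes tested. Of the 7076 genes with a mean from 13 to 82 CPM, the range of the members, 9.62% were called. Markers of other kinds moved with genotype in the same libraries. Fibroblast markers summed to 4310 to 5590 CPM (median 4830) in WT and 3380 to 4710 CPM (median 4050) in *Chek2*-/- ovaries, and those of growing oocytes to 3730 to 5180 CPM (median 4490) and 1760 to 4300 CPM (median 3750). Granulosa markers summed to 1150 to 1530 CPM (median 1220) and 655 to 1180 CPM (median 1080), and those of primordial oocytes, which were higher in *Chek2*-/- ovaries by their median, to 225 to 319 CPM (median 260) and 196 to 360 CPM (median 308). Their part in the *Exoc5* value was not tested. *Ap5m1*, which overlaps the *Exoc5* locus, did not pass (log2 difference 0.15, adjusted p = 0.259).

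Several other members lay just outside the threshold. The edgeR log2 differences between *Chek2*-/- and WT were 0.15 for *Exoc2* (adjusted p = 0.0556), 0.19 for *Exoc8* (adjusted p = 0.0822), 0.16 for *Exoc1* (adjusted p = 0.0828) and -0.10 for *Exoc7* (adjusted p = 0.112). DESeq2 called 5 of 9, adding these 4 genes to *Exoc5*, beside 9.36% of all genes. In the single-cell libraries, given below, *Exoc1*, *Exoc2*, *Exoc5* and *Exoc7* ran the other way over all cells. *Exoc6*, *Exoc6b* and *Exoc3* had log2 differences of 0.09, 0.03 and 0.00.

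*Chek2*-/- replicate 6 was at the end of its group's range in both treatments for 5 of the 9 genes. The share of all genes for which that holds was not counted, so it is not read as a trait of the exocyst. In the *Chek2*-/- groups *Exoc6b* measured 93.3 CPM in replicate 6 without irradiation and 92.0 CPM in replicate 6 after it, where the next libraries had 76.8 and 77.1 CPM. *Exoc1* was lowest in the same libraries, at 71.1 and 72.7 CPM. *Exoc5* was highest there, at 78.2 and 74.3 CPM, as were *Exoc8*, at 33.5 and 35.0 CPM, and *Exoc3*, at 75.4 and 77.2 CPM. These libraries had lower oocyte and granulosa marker sums, with granulosa markers summing to 655 and 649 CPM beside 951 to 1270 CPM in the other *Chek2*-/- libraries, and higher epithelial marker sums, at 1220 and 1040 CPM beside 460 to 814 CPM. The part of these differences in the values of the 5 genes was not tested. Without both libraries, edgeR called 3 of 9 members between the genotypes, *Exoc5*, *Exoc1* (0.20, adjusted p = 0.0147) and *Exoc2* (0.16, adjusted p = 0.0424), beside 7.09% of all genes. There *Exoc5* was at 0.38 (adjusted p = 0.0124) and *Exoc6b* at -0.03.

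The partners of the exocyst did not pass the threshold in irradiated WT ovaries. Of 21 regulators (small GTPases with their exchange factors and Ral inhibitors), 0 were called by edgeR, with a median log2 difference of 0.00 beside 2.41% of all genes called, and 2 had an unadjusted p under 0.05, as did 11.4% of all genes. *Rab3ip*, an exchange factor for Rab8, had the lowest value, 17.5 to 21.7 CPM in irradiated WT ovaries beside 21.7 to 23.3 CPM without irradiation (log2 difference -0.20, adjusted p = 0.142). Of 16 SNARE genes and fusion factors with enough counts, 0 were called by edgeR and 0 had an unadjusted p under 0.05 (median log2 difference -0.01). DESeq2 and the other fits called none of either list.

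Other tethering complexes of the Golgi and endosomes (COG, GARP, EARP and the ER-side NRZ complex) also had 0 of 16 genes called in edgeR, where 2.41% of all genes were. Their median log2 difference was -0.07, 14 of 16 were below 0, and 5 had an unadjusted p under 0.05, as did 11.4% of all genes. *Cog4* came nearest, with means of 79.3 CPM without and 71.7 CPM with irradiation in WT (log2 difference -0.15, adjusted p = 0.0695), and DESeq2 called 1 of 16, beside 3.05% of all genes. The exocyst paralogues with enough counts, *Exoc3l*, *Exoc3l2*, *Exoc3l4* and *Tnfaip2*, had log2 differences of -0.09 to 0.02, and none was called.

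Between the genotypes without irradiation, the regulators had a median log2 difference of 0.01. Of 21, 4 were called (edgeR), beside 5.34% of all genes. These were *Arf6* (0.19, adjusted p = 0.0122), *Rab10* (0.20, adjusted p = 0.0294) and *Rab11a* (0.24, adjusted p = 0.0329), which were higher in *Chek2*-/- ovaries, and *Rab3il1* (-0.42, adjusted p = 0.0163), which was lower. ARF6, RAB10 and RAB11A act on recycling and secretory vesicles. Of the 16 SNARE genes and fusion factors 1 was called, *Stxbp3*, a regulator of SNARE assembly, which was higher by 0.22 (adjusted p = 0.0353). Of the 16 genes of other tethers 1 was called, the GARP subunit *Vps54*, which was higher by 0.17 (adjusted p = 0.0479).

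The genes whose profile over the 24 libraries was closest to that of *Exoc4* were *Phlda3*, *Mdm2*, *Dcxr*, *Pidd1* and *Gria3*, among 12553 genes with a mean of at least 5 CPM. Likeness was the root mean square difference of log2 CPM profiles, each set to its own non-irradiated WT mean, and came to 0.195, 0.219, 0.239, 0.247 and 0.254. *Phlda3* had means of 28.2 and 65.0 CPM without and with irradiation in WT and of 26.7 and 34.2 CPM in *Chek2*-/- ovaries. *Mdm2*, which codes for the ligase that limits p53, had means of 80.8 and 204 CPM in WT and of 88.5 and 89.8 CPM in *Chek2*-/- ovaries.

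The genes on either side of *Exoc4* did not follow it. *Plxna4* and *Chchd3* upstream had log2 differences of -0.19 and -0.08 in irradiated WT ovaries, and *Lrguk* and *Slc35b4* downstream -0.21 and -0.11, with edgeR adjusted p-values of 0.46 to 0.825.

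The single-cell libraries placed the *Exoc4* response in cell types. After filters and removal of doublets they held 36418 cells, 8681 to 9737 per library, with a median of 13876 to 17137 UMIs (unique transcript tags) per cell. Pairs of libraries shared 30 to 73 barcodes, at most 0.71% of the smaller one. Clusters named by fixed markers gave 8 classes, fibroblast-like (18600 cells), granulosa-like (12772), epithelial-like (1317), perivascular-like (1233), endothelial-like (761), pericyte-like (656), oocyte-like (580) and macrophage-like (137). With 1 library per condition there is no test, and the intervals cover counting error only. The share of all genes whose ratio intervals leave out 1 was not counted.

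Over all cells *Exoc4* stood at 36.5 CPM (UMIs scaled to 1000000 per class and library) in the non-irradiated and 87.5 in the irradiated WT library, a ratio of 2.4 (95% interval 2.33 to 2.47), and at 34.8 and 42.8 CPM in the *Chek2*-/- libraries, a ratio of 1.23 (1.19 to 1.27). These sit beside 2.6-fold and 1.25-fold in the bulk libraries, which came from other animals and another chemistry. Of the other 8 genes, the ratios over all cells were 0.964 to 1.13 in WT and 0.964 to 1.09 in *Chek2*-/-.

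*Exoc4* was higher in the irradiated WT library in 8 of 8 classes, with intervals all above 1. In fibroblast-like cells it went from 40.8 to 113 CPM, a ratio of 2.78 (2.66 to 2.9). In perivascular-like cells, the smooth muscle around vessels and in the stroma, it went from 31.9 to 96.9, a ratio of 3.04 (2.48 to 3.74). Their cluster also met the naming limits for 86% of the fibroblast markers. Pericyte-like cells gave a ratio of 2.67 (1.87 to 3.89). Granulosa-like cells, which surround and feed the oocyte, went from 31.2 to 70.5, a ratio of 2.26 (2.15 to 2.38). Endothelial-like cells had the highest starting level of the larger classes and went from 54.5 to 116, a ratio of 2.12 (1.8 to 2.5). Epithelial-like cells, of the ovarian surface, gave 1.98 (1.72 to 2.29), and the 83 macrophage-like cells of both WT libraries 1.82 (1.15 to 2.98).

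Oocyte-like cells gave the lowest ratio of pooled UMIs, 1.38 (1.25 to 1.52), from 37.6 to 51.9 CPM, and its interval did not meet those of the fibroblast-like, perivascular-like, pericyte-like, granulosa-like, endothelial-like or epithelial-like classes. Genes past 1.5-fold higher were more frequent among oocyte-like cells, at 13.1% of 13632 genes with at least 50 UMIs, and *Exoc4* was not one of them on pooled UMIs. The same threshold was passed by *Exoc4* over all cells (with 4.72% of genes) and in fibroblast-like (2.0%), granulosa-like (3.62%), epithelial-like (8.5%), perivascular-like (3.07%), endothelial-like (2.06%), pericyte-like (3.16%) and macrophage-like (7.67%) cells, and by no other member except *Exoc1* in pericyte-like cells. *Mdm2*, by contrast, had a ratio of 10.5 (10 to 11) in oocyte-like and 1.52 (1.44 to 1.61) in fibroblast-like cells. Only members with at least 50 UMIs in both WT libraries together were counted at that threshold. These were 7 in perivascular-like, 6 in pericyte-like and 3 in macrophage-like cells.

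**Figure D3:**
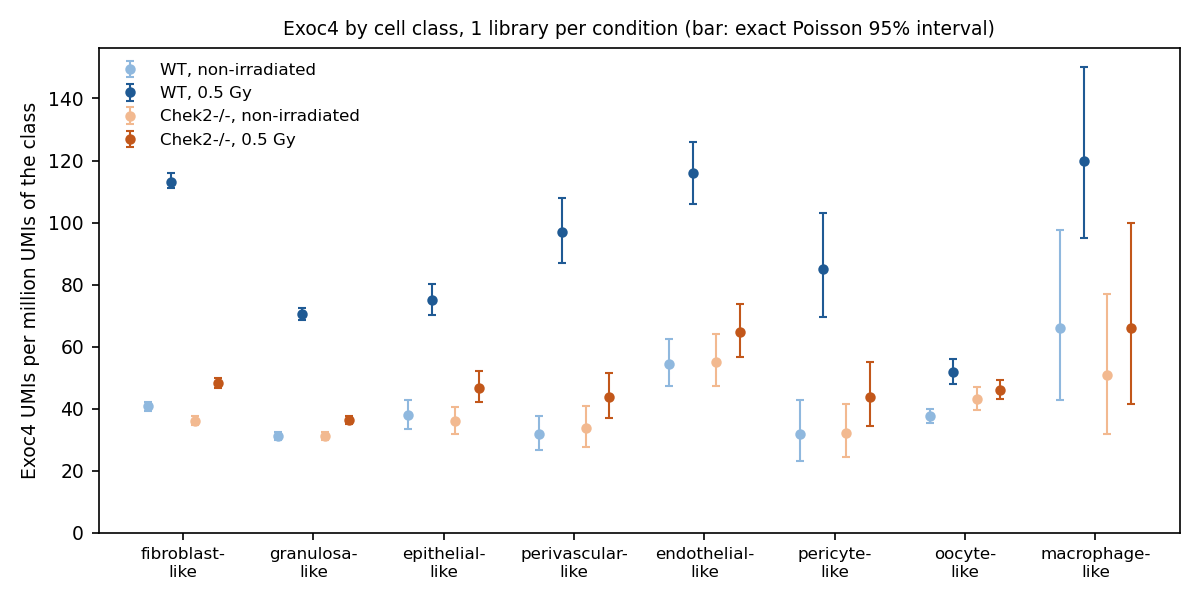
*Exoc4* level in CPM, that is UMIs scaled to 1000000 per class and library (y axis, from 0), in 8 cell classes of the 4 single-cell libraries, as points with exact Poisson 95% intervals. The point of the irradiated WT library is above those of the other libraries in each class, with 113 in fibroblast-like cells. In oocyte-like cells it is at 51.9, beside 46.1 in the irradiated *Chek2*-/- library.

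The irradiated WT oocyte-like cells differed from the others in depth. Their median was 15869 UMIs, beside 181495 in non-irradiated WT, 159206 in non-irradiated *Chek2*-/- and 121594 in irradiated *Chek2*-/- oocyte-like cells. Fibroblast markers summed to 303 CPM in them and to 217 in non-irradiated WT oocyte-like cells, and granulosa markers to 145 and 375 CPM. The part of depth and of these markers in the *Exoc4* value was not tested. Limited to cells with at least 20000 UMIs (79 and 154 cells), the pooled ratio was again 1.38. The pooled value weights a cell by its UMIs, and the mean over cells gave other ratios, 1.48 (42.1 CPM without and 62.3 CPM with irradiation) over all oocyte-like cells and 1.59 (37.5 and 59.7 CPM) over those with at least 20000 UMIs. The ratio passed 1.5-fold only with the mean over cells and the minimum of 20000 UMIs together.

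Clustered alone, 63 irradiated WT oocyte-like cells, with a median of 124619 UMIs, fell in a subcluster that held no cell of another library, and these had 49.9 CPM of *Exoc4* (45.5 to 54.7). Fibroblast markers summed to 163 CPM in that subcluster. A subcluster with 5130 CPM of *Gdf9*, an oocyte growth factor, had 45.4 CPM in non-irradiated WT (37.8 to 54.1, 37 cells) and 46.9 in irradiated WT (38.7 to 56.3, 17 cells), and these intervals overlapped. In 2 other subclusters the intervals did not meet, with 39.6 CPM (35.4 to 44.1, 48 cells) and 74.6 CPM (59.9 to 91.8, 24 cells) in one, and 32.9 CPM (24.4 to 43.4, 14 cells) and 80.2 CPM (50.3 to 121, 40 cells) in the other. The irradiated cells of these were shallow, with medians of 22241 and 3111 UMIs beside 189820 and 43149 in the non-irradiated ones. Both subclusters also carried markers of somatic cells, with 6 of 6 granulosa markers in the first and 7 of 7 fibroblast markers in the other at 2-fold or more of the median subcluster and present in at least 25% of cells. Fibroblast markers summed to 173 and 845 CPM (non-irradiated and irradiated WT) in the first and to 1150 and 3410 CPM in the other, while oocyte markers stood at 9420 and 5220 CPM and at 13200 and 7070 CPM. The part of these markers and of depth in the *Exoc4* values was not tested. The remaining subclusters held at most 4 *Exoc4* UMIs from irradiated WT.

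In the *Chek2*-/- libraries the *Exoc4* ratios were smaller in each class. The intervals were above 1 in 4 of 8 classes, fibroblast-like (1.34, 1.27 to 1.41), granulosa-like (1.16, 1.1 to 1.23), epithelial-like (1.3, 1.11 to 1.53) and perivascular-like (1.29, with a lower bound that rounds to 1.0). No member with at least 50 UMIs in both libraries together passed 1.5-fold higher in any *Chek2*-/- class, beside 3.89% of genes over all cells, 2.58% in fibroblast-like, 1.6% in granulosa-like, 2.5% in epithelial-like, 2.22% in perivascular-like, 2.43% in endothelial-like, 4.27% in pericyte-like, 7.11% in oocyte-like and 6.8% in macrophage-like cells. This left 7 members in perivascular-like and pericyte-like cells and 0 in macrophage-like cells. The ratio was 1.07 (0.955 to 1.19) in oocyte-like, 1.17 (0.957 to 1.44) in endothelial-like and 1.37 (0.957 to 1.96) in pericyte-like cells. Oocyte-like cells went from 43.2 to 46.1 CPM of *Exoc4* in *Chek2*-/-, beside 37.6 to 51.9 CPM in WT. Among those with at least 20000 UMIs, irradiated *Chek2*-/- cells had 46.5 CPM (43.4 to 49.8) and irradiated WT cells 51.4 CPM (47.5 to 55.4). These 2 intervals overlapped. *Ccng1* over all cells had ratios of 3.78 in WT and 1.35 in *Chek2*-/-, and *Cdkn1a*, the p53 target that stops the cell cycle, 7.86 and 1.72.

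Within a class the *Exoc4* response also varied. The 5 fibroblast-like clusters had WT ratios of 2.13 to 3.32. The lowest was that of a dividing cluster led by *Top2a* (2.13, 1.94 to 2.34), and the highest that of a non-dividing one led by *Mfap4* (3.32, 3.09 to 3.57). The 4 granulosa-like clusters ran from 1.72 to 2.93. The dividing cluster, led by *Amh* and *Inhbb*, had 1.72 (1.57 to 1.9), and a non-dividing cluster with the same leading genes had 2.93 (2.7 to 3.19). The other non-dividing granulosa-like clusters had 1.95 (1.77 to 2.16) and 2.73 (2.35 to 3.18). In *Chek2*-/- the fibroblast-like clusters had ratios of 1.18 to 1.62 and the granulosa-like ones 1.07 to 1.24. The highest, past 1.5-fold, was that of a dividing fibroblast-like cluster (1.62, 1.38 to 1.92). Cycling genes helped to form these clusters, so their levels there are no finding.

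The share of cells with an *Exoc4* UMI moved the same way once depth was made equal. With each cell thinned to 5000 UMIs, it was 18.4% (exact binomial 95% interval 17.3 to 19.5) of 4892 non-irradiated and 43.1% (41.7 to 44.5) of 4706 irradiated WT fibroblast-like cells, and 14.1% and 28.8% of granulosa-like cells. Before thinning the shares were 38.2% and 69.0% in fibroblast-like cells. Thinning left out 134 and 149 fibroblast-like cells with fewer UMIs. No class known to lack *Exoc4* was at hand, so no background share from free RNA is given.

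**Figure D4:**
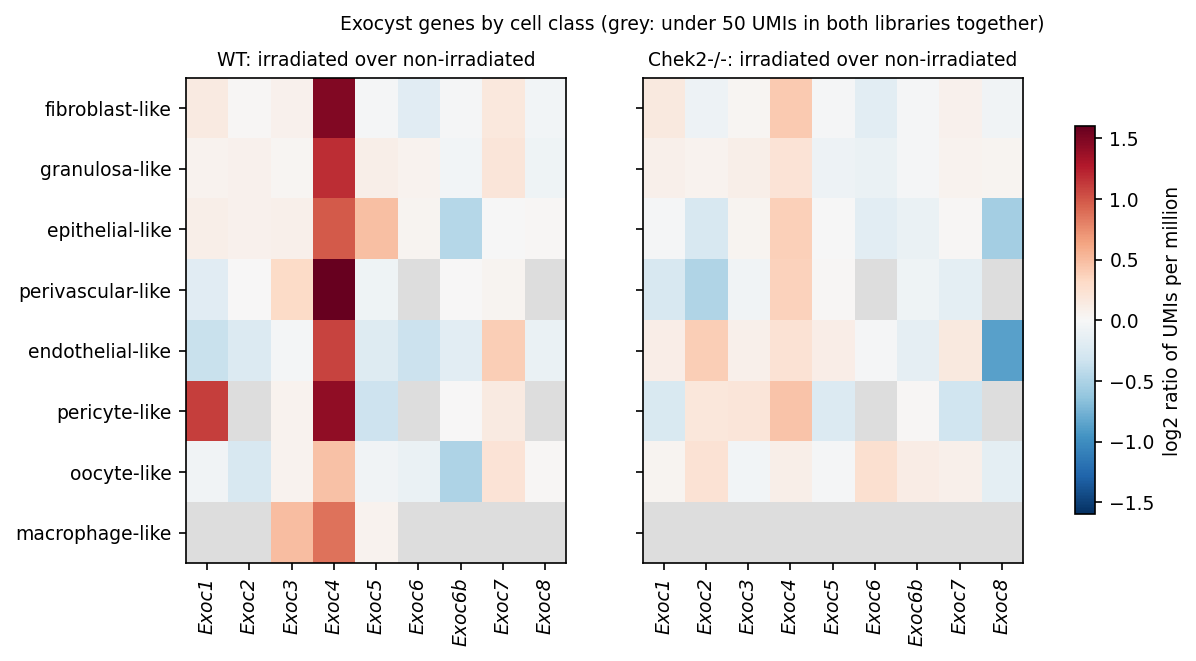
Log2 ratio of CPM, irradiated over non-irradiated (colour), for 9 exocyst genes (columns) in 8 cell classes (rows), WT on the left and *Chek2*-/- on the right, with squares in grey where both libraries together held under 50 UMIs. The *Exoc4* column runs from 1.38-fold in oocyte-like to 3.04-fold in perivascular-like cells in WT. In *Chek2*-/- it runs from 1.07-fold in oocyte-like to 1.37-fold in pericyte-like cells, with a grey macrophage-like square (22 UMIs in each library).

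Of the other members, *Exoc7* had intervals above 1 in 4 of 8 WT classes, at 1.12 (1.06 to 1.18) in fibroblast-like, 1.14 (1.09 to 1.21) in granulosa-like, 1.31 (1.06 to 1.63) in endothelial-like and 1.16 (1.05 to 1.29) in oocyte-like cells. In the bulk libraries it had 0.09 on the log2 scale, below the threshold. *Exoc6b* was lower in irradiated WT oocyte-like cells, at 13.8 and 9.8 CPM (ratio 0.711, 0.579 to 0.868), and *Exoc5* was higher in irradiated WT epithelial-like cells (1.4, 1.2 to 1.63). *Exoc5* was lower in endothelial-like cells (0.867, 0.766 to 0.98), and *Exoc6b* in epithelial-like cells (0.731, 0.635 to 0.843). *Exoc1* had a ratio of 2.15 (1.27 to 3.72) in pericyte-like cells, on 23 and 45 UMIs, and of 0.778 (0.622 to 0.973) in endothelial-like cells, on 170 and 155 UMIs. Neither *Exoc1* nor *Exoc5* thus kept 1 direction over the classes. Without the share of all genes whose intervals leave out 1, these intervals do not set the members apart from other genes.

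The levels of the subunits differed between cell classes, which were formed without the exocyst genes. Among the 7 classes with at least 50 cells per library, *Exoc5* was highest in endothelial-like cells in 4 of 4 libraries (108 to 135 CPM) and lowest in oocyte-like cells in 4 of 4 (24.6 to 27.2). *Exoc6b* had the same extremes, with 49.1 to 68.9 in endothelial-like and 9.8 to 13.8 in oocyte-like cells. *Exoc1* and *Exoc3* were highest in oocyte-like cells in 4 of 4 libraries, at 56.6 to 65.3 and 85.8 to 94.9. *Exoc4* was highest in endothelial-like cells in 4 of 4 libraries (54.5 to 116). *Exoc2* and *Exoc8* were highest there too, in 4 of 4 libraries each.

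The levels of the alternative Rab-binding subunits were set side by side by cell class. *Exoc6* had 0.46 to 0.629 CPM in fibroblast-like cells, 5.73 to 6.5 in granulosa-like, 6.99 to 8.29 in oocyte-like and 10.7 to 15.5 in endothelial-like cells over the 4 libraries. *Exoc6b* had 29.6 to 34.9 in fibroblast-like, 29.6 to 34.5 in granulosa-like, 9.8 to 13.8 in oocyte-like and 49.1 to 68.9 in endothelial-like cells. Of these classes, both genes were thus highest in endothelial-like cells, *Exoc6* was lowest in fibroblast-like and *Exoc6b* in oocyte-like cells. In non-irradiated WT pericyte-like cells *Exoc6* had 0 UMIs, which allows up to 2.17 CPM at 3 counts, or 2.67 CPM as the upper end of the exact Poisson interval.

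*Exoc5*, the member called higher in *Chek2*-/- bulk ovaries, was not higher in the *Chek2*-/- single-cell library. It stood at 40.3 CPM over all cells in non-irradiated WT and 38.6 in non-irradiated *Chek2*-/- (ratio 0.956, 0.924 to 0.988). The ratio was 0.923 (0.875 to 0.973) in fibroblast-like, 0.938 (0.888 to 0.99) in granulosa-like and 0.8 (0.696 to 0.92) in endothelial-like cells, and 1.07 (0.932 to 1.22) in oocyte-like cells. The single-cell libraries count transcript 3′ ends, and the bulk libraries count fragments over whole transcripts of a gene that *Ap5m1* overlaps. Of the members that DESeq2 added in bulk, *Exoc1*, *Exoc2* and *Exoc7* also ran opposite to bulk over all cells, and *Exoc8* did not. In non-irradiated WT and *Chek2*-/- they stood at 35.2 and 33.3 CPM (*Exoc1*), 16.2 and 15.4 (*Exoc2*), 38.0 and 40.8 (*Exoc7*), and 6.29 and 6.65 (*Exoc8*). Whether these differences come from the assay, the age of the females or the animals was not tested.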

How the data were processed

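The exocyst genes, their comparison lists and the marker lists were chosen with earlier results of these data known. Bulk ovary RNA (poly(A) libraries) was quantified by the authors with Salmon 1.3.0, and the deposited values are estimated counts per gene, which were rounded to whole numbers. The submitters' notes name mm10 while the study's methods name a later Ensembl release, so genes were matched by identifier, and positions are those of GENCODE and RefSeq on GRCm38. Of 44674 identifiers, 522 had no symbol. The sources used here give no strand setting for the counting, so values of genes that overlap another (*Exoc2*, *Exoc4*, *Exoc5*, *Exoc6b* and *Exoc7*) are uncertain to that extent.

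Genes with at least 10 counts over 24 libraries (26790) were tested with edgeR 4.0.16 (quasi-likelihood, TMM, 1 coefficient per group) and called at a Benjamini-Hochberg adjusted p of 0.05. CPM used TMM library sizes. The test was checked on simulated data, where 91% of genes changed by 1 and 62% of those changed by 0.5 (log2) were recovered in the WT comparison. Alternatives were DESeq2 1.42.0, limma-voom 3.58.1, other normalization and filters, a replicate block, only the groups compared, and each library left out. Bulk replicates are separate females.

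The deposited single-cell matrices hold UMI counts made by the authors with Cell Ranger. Cells with at least 1000 genes, at most 20% mitochondrial and 50% ribosomal-protein UMIs were kept, Scrublet doublets (4.41 to 5.88%) were removed, and 2000 variable genes, without the exocyst, its lists and radiation response genes, gave 30 components, 15 neighbours and Leiden clusters (scanpy 1.11.5, resolution 0.5). A cluster of at least 50 cells was named where 60% and at least 3 of a list's markers were in 25% of its cells at 2-fold the median cluster, unless its top 10 genes held more markers of another list. These limits were set with the clusters in view. Of 19 clusters 4 stayed unnamed (362 cells). Ratios have conditional exact binomial 95% intervals and levels exact Poisson ones.

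The text names all 9 members, *Chek2*, 4 paralogues, the 5 genes most like *Exoc4*, 2 coding neighbours on each side, and *Ccng1*, *Mdm2* and *Cdkn1a*. *Rab3ip*, *Cog4*, *Ap5m1*, *Gdf9*, the cluster leaders *Top2a*, *Mfap4*, *Amh* and *Inhbb*, and the genes called between genotypes lie outside that rule and were chosen after their values were seen.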

Additional observations from a re-analysis of the deposited data

Results flagged for a closer look

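*Exoc6b* in non-irradiated *Chek2*-/- replicate 6, at 93.3 CPM, lay far from the other 5 libraries of its group, the nearest of which had 76.8 CPM. In irradiated *Chek2*-/- replicate 6 it was at 92.0 CPM, and the nearest library had 77.1 CPM. These were the only values set apart in this way among the 9 members in 4 groups of 6. Chance sets apart about 1 group in 20 where the values are independent. These values are of 1 gene in same-numbered libraries, so that share cannot say how many to expect here. Both libraries had low oocyte marker sums, and the part of this in the *Exoc6b* values was not tested.

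The irradiation effect on *Exoc4* differed between the genotypes, by -1.06 on the log2 scale (*Chek2*-/- minus WT). *Exoc4* was chosen for its WT response, so this is a description.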

How the results depend on the processing

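In WT ovaries, and for the difference of the irradiation effects, each alternative called 1 of 9 members (beside 1.74% to 3.81% and 0.776% to 1.71% of all genes). That member was *Exoc4*, chosen for its WT response, so these calls are a description and no test. Its log2 differences in WT were 1.35 to 1.44 with libraries left out. In *Chek2*-/- ovaries DESeq2 called 1 of 9 (0.0523%), and leaving out single libraries called 0 to 1 (0.0075% to 0.0187%), with 1 without irradiated WT replicate 6 (0.0187%). Between genotypes the count was 5 with DESeq2 (beside 9.36% of all genes), 2 with filterByExpr (9.28%), 2 with the replicate block (7.56%), 1 to 3 with single libraries left out (2.15% to 6.75%), and 3 without *Chek2*-/- replicate 6 of both treatments (7.09%), where the main comparison had 1 (5.34%). *Exoc2* joined *Exoc5* without non-irradiated WT replicate 5, irradiated WT replicate 1, 4, 5 or 6, or irradiated *Chek2*-/- replicate 3 or 6 (2 called each), and *Exoc2* and *Exoc1* without non-irradiated *Chek2*-/- replicate 6 (3 called). Library numbers were not taken to pair the samples, since same-numbered libraries had a median correlation of 0.04 and 6 of 36 exceeded 0.1, and in the other comparisons the block left the counts as they were. The *Chek2*-/- groups came closest, with correlations of 0.04 to 0.42, 4 of 6 over 0.1 and 4 of 6 libraries nearest to their own number. A replicate block on the *Chek2*-/- libraries alone, added after seeing the data, called 1 of 9 after irradiation, *Exoc4* at 0.31 (edgeR adjusted p = 0.0178), beside 0.02% of all genes. For the other tethers in WT ovaries DESeq2 called 1 of 16 (3.05%), and leaving out single libraries 0 to 1 (1.94% to 3.11%), with 1 without non-irradiated WT replicate 2 (2.46%). The cause of these shifts was not tested.

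Some log2 differences near 0, none of them called, changed sign. With libraries left out, *Exoc1* ran from -0.04 to 0.02 in *Chek2*-/- ovaries and from -0.02 to 0.05 for the difference of effects, *Exoc3* from -0.02 to 0.02 in *Chek2*-/- ovaries, and *Exoc6* from -0.07 to 0.08 in WT and from -0.09 to 0.07 for the difference. *Exoc6b* ran from -0.08 to 0.04 in *Chek2*-/- ovaries, from -0.11 to 0.03 for the difference and from -0.03 to 0.07 between genotypes, and *Exoc8* from -0.05 to 0.05 for the difference. The *Exoc8* difference was also -0.01 with no low-count filter and -0.01 with filterByExpr, and without *Chek2*-/- replicate 6 of both treatments, a setting chosen after seeing the data, the *Exoc6* difference was 0.01 and *Exoc6b* between genotypes -0.03. The *Exoc4* ratios in single cells stayed within their counting intervals, except that means over cells, added after seeing the data, gave 2.92 in WT fibroblast-like cells and, over oocyte-like cells with at least 20000 UMIs, 1.59 in WT and 1.2 in *Chek2*-/-. Perivascular-like cells had no value at the higher clustering resolution, where the cluster with the same leading genes met both the perivascular and fibroblast lists and stayed unnamed. With 1 single-cell library per condition, the spread between animals is unknown.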
